A study of Mus musculus with 6 samples.

Results

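A block of exons skipped together was a run of at least 2 neighbouring exons that some assembled transcripts of a gene included and others left out as a unit. The blocks came from 6 deposited lists of splicing events, 1 per library, in which the assembled transcripts of each gene were set against each other. An event was identified by its class, gene, chromosome, strand, start and end. The union over the 6 libraries held 2305 blocks among 132823 events of all classes. Of the blocks, 1914 were exact, with the same flanking splice sites in the included and the skipped form, and 391 were approximate, with flanks that differed. The blocks occupied 2149 locations, and 156 locations were listed in both classes. The number of exons was read from the listed pattern of exon positions.

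The libraries were made from total RNA of the nucleus accumbens, a ventral striatal region of the reward circuit, of adult male C57BL/6N mice. There were 3 libraries from mice injected with saline and 3 from mice injected with morphine, all trained in conditioned place preference, in which an injection is paired with a place. Neither group carried a genetic change. The series text counts 6 mice behind the 3 samples of each group, whereas the study's figure text treats every library as 1 mouse, and pooling of animals could not be settled. The p-values below therefore measure only the spread between these libraries, which may be partly technical.

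Splicing can leave out a run of exons by joining the exon before the run directly to the exon after it. If the summed length of the run is a multiple of 3, the reading frame downstream is kept and the protein loses an internal stretch; otherwise the frame shifts. Neurons are known for such runs, among them the N-terminal inserts of the microtubule-associated protein tau and the variable linker of the calcium/calmodulin-dependent kinase CaMKII. An event list says which forms were assembled in a library, and it gives no level for either form.

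The sequences of 10 blocks are shown because they carry the patterns described below, and each was listed in all 6 libraries. They were read from GENCODE M21 transcripts (GRCm38) and run from the first to the last base of the block, 5′ to 3′ on the coding strand. Capitals mark the first and, where present, the third exon, and lower case marks the second exon, so the change of case is the exon border. Every exon shown is annotated as coding. The Camk2d block lies at chr3:126805857-126808249 (plus strand) and the Camk2g block at chr14:20745792-20747851 (minus strand). These 2 kinase genes each have a block of 102 bases in the linker region. The exons have 60 and 42 bases in Camk2d and 33 and 69 bases in Camk2g. Whether the 2 blocks correspond to each other was not tested.
Camk2d: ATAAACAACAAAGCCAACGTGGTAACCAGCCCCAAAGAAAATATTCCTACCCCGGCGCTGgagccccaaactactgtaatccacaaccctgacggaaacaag
Camk2g: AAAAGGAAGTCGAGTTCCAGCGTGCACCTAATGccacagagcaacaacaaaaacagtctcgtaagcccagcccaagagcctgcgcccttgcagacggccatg

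The next set holds blocks of synaptic and axonal genes in which every exon keeps the frame by itself. Rims2, a scaffold of the presynaptic active zone, had 2 blocks in all 6 libraries. The one printed lies at chr15:39274976-39275500 (plus strand). In the other, exons of 101, 173 and 242 bases each shift the frame, and the whole block keeps it. Adam22, a neuronal receptor of the ADAM family, has an upstream block at chr5:8094986-8107019 and a downstream block at chr5:8086594-8088068 (both minus strand). The Ptprd block at chr4:76138556-76139302 (minus strand) holds 2 microexons, here exons of at most 27 bases, of a receptor phosphatase of the presynaptic membrane. The Dctn1 block at chr6:83183936-83187784 (plus strand) holds 3 microexons of the dynein adaptor subunit dynactin p150.
Rims2: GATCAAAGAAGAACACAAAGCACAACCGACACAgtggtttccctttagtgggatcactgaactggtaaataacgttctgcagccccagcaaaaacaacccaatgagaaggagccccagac
Adam22 upstream block: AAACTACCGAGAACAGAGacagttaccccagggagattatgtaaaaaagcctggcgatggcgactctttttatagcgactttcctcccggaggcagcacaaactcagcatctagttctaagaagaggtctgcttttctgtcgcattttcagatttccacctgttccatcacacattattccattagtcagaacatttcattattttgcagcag
Adam22 downstream block: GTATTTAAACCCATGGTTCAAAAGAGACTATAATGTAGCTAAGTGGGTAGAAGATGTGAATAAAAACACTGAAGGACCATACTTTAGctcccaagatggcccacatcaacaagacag
Ptprd: AATCTATTGgtggtacaccaataagag
Dctn1: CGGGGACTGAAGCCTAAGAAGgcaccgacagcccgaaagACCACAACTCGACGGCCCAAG

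The last set, like the Camk2g block above, was chosen after the values were seen. Mbnl1 (chr3:60621423-60622240) and Mbnl2 (chr14:120403336-120404732), both on the plus strand, encode muscleblind splicing regulators and have blocks of equal length whose removal shifts the frame. Atf2 (chr2:73845439-73846375, minus strand) encodes a leucine-zipper transcription factor, and its block keeps the frame although each of its exons shifts it.
Mbnl1: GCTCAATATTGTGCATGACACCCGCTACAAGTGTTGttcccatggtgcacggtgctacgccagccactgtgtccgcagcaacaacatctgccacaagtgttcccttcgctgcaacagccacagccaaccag
Mbnl2: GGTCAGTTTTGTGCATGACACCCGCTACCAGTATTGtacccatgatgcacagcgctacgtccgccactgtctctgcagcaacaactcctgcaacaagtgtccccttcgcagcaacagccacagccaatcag
Atf2: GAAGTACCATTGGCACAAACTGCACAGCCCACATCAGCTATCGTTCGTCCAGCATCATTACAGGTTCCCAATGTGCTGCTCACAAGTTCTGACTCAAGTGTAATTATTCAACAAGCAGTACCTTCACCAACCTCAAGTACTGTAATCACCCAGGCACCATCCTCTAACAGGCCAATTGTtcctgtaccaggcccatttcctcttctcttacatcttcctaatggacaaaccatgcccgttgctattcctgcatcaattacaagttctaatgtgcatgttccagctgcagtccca

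Relative sequencing depth, estimated from counts and FPKM of the same transcripts, ranged from 1 in the first saline library to 1.59 in the second morphine library; total read numbers are not given in the sources used here. Between 14243 and 14956 genes had a listed event per library. All 13 markers of striatal medium spiny neurons were listed in every library, as were all 12 oligodendrocyte, 8 astrocyte and 8 microglia markers, 8 to 9 of 9 ependymal markers and 6 of 7 endothelial markers, Cldn5 being the one not listed. A listed gene has assembled transcripts, which says nothing of its level. In such bulk tissue, fewer cells of a type and less RNA per cell cannot be told apart.

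Most blocks were short. A pair of exons made up 1715 blocks (74.4%), 3 exons 361 blocks (15.7%), and 4 or more exons 229 blocks. The median spliced length was 273 bases (quartiles 182 and 434), and the median skipping junction, from the exon before to the exon after, spanned 13509 bases of genome. The blocks lay in 1298 of 16154 listed genes (8.04%). Protein-coding genes held 2268 of them (98.4%), and 829 genes had a single block. On the strand opposite to their assigned gene were 80 blocks (3.47%).

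The longest runs were seen once. The largest, chosen for its size, was a run of 33 exons and 4248 bases in Brwd1, a bromodomain gene, listed in the first morphine library only. The next was a run of 23 exons in Ank3, which encodes the axon initial segment scaffold ankyrin-G, in the same library. Wrn, a DNA helicase gene, had a run of 19 exons in the second morphine library. Of the 100 blocks with 5 or more exons, 6 were listed in all 6 libraries.

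A minority of blocks recurred. Of the 2305, 1270 (55.1%) were listed in 1 library and 281 (12.2%) in all 6, the latter in 215 genes (1.33% of listed genes). Recurrent blocks were more often annotated. The included form, with all its junctions, was in GENCODE M21 for 59.5% of the blocks listed once and for 93.6% of those listed in all 6 libraries. The skipping junction was annotated for 42.2% and 91.1%, and both forms were annotated for 23.4% and 85.1%. Of the 281 recurrent blocks, 1 had neither form in the annotation, against 275 of the 1270 listed once.

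The share of blocks that keep the frame also differed with recurrence. Among blocks with every exon coding, 295 of 608 listed in 1 library (48.5%) had a length that is a multiple of 3, and the share was 63.8%, 61.2%, 64.8% and 68.5% at 2, 3, 4 and 5 libraries. In all 6 libraries it was 208 of 242 (86.0%). Single cassette exons, the same kind of event with 1 exon, went from 44.8% to 81.4%. Within each library, the coding blocks that no other library listed kept the frame in 43.2% to 53.2% of cases. The shares are counts over events, which are not replicates, so no test is given.

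**Figure D1:**
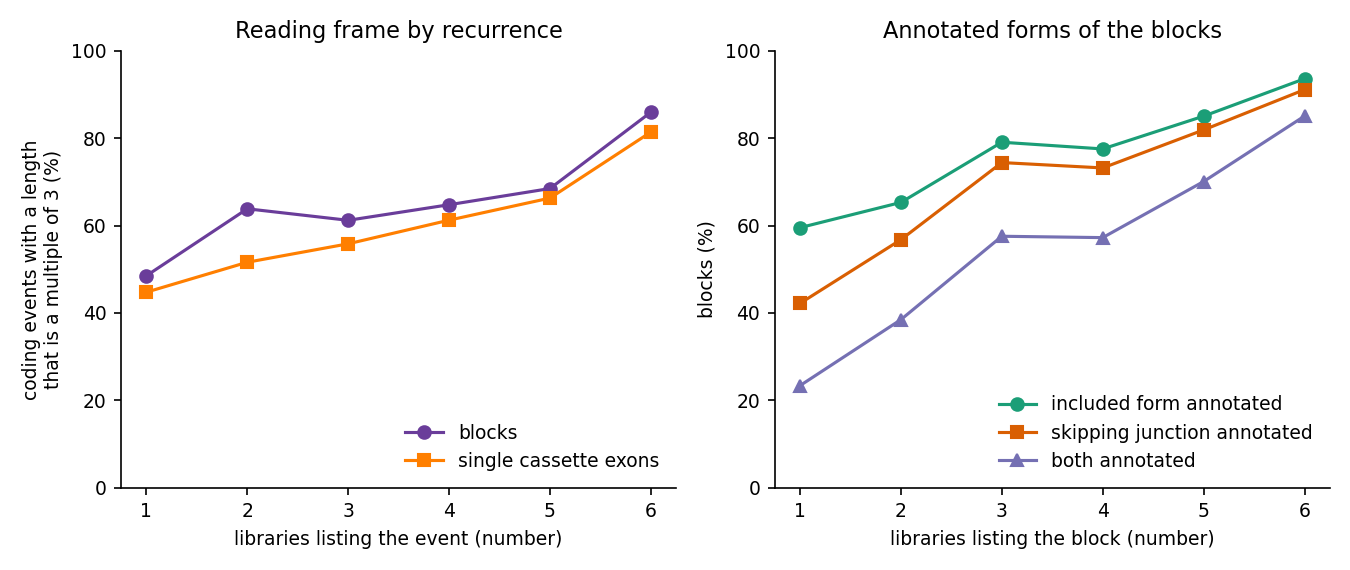
Left, share of coding blocks (circles) and coding single cassette exons (squares) with a length that is a multiple of 3, in percent, against the number of libraries that listed the event. Right, share of blocks whose included form, skipping junction or both are in GENCODE M21, in percent. All lines are highest at 6 libraries, where 86.0% of coding blocks kept the frame and 85.1% of blocks had both forms annotated.

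Blocks kept the frame in 2 ways. In the first, each exon has a length that is a multiple of 3. In the second, the exons shift the frame one by one and make up for each other, as in Atf2, whose exons of 179 and 115 bases sum to 294. Of the 161 coding 2-exon blocks that kept the frame in all 6 libraries, 122 were of the first kind and 39 (24.2%) of the second. Among those listed once, the second kind was 99 of 206 (48.1%). In blocks of 3 or more exons listed in all 6 libraries, 47 of 52 coding blocks kept the frame (90.4%), 22 of them with exons that made up for each other.

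The 2 kinds differed in whether their exons were also listed alone, that is, as single cassette exons of the same library. Where each exon kept the frame, both exons of a 2-exon coding block were also listed alone in 62.4%, 68.8% and 63.7% of the blocks of the saline libraries and in 63.2%, 63.5% and 65.1% of those of the morphine libraries. Where each exon shifted the frame, both were listed alone in 13.3%, 15.9% and 14.8% of the saline and 16.1%, 15.1% and 18.5% of the morphine blocks. The 2 sets of values did not overlap. The means were 64.5% ± 2.28 (SD, n = 6) and 15.6% ± 1.75 (SD, n = 6), a difference of 48.8 percentage points in the same direction in 6 of 6 libraries (two-sided exact sign-flip permutation test, p = 0.03125, the smallest that 6 differences allow; 0.03125 after Benjamini-Hochberg adjustment over 4 tests added after the data were seen). The libraries share most of these events, so they are not fully independent.

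**Figure D2:**
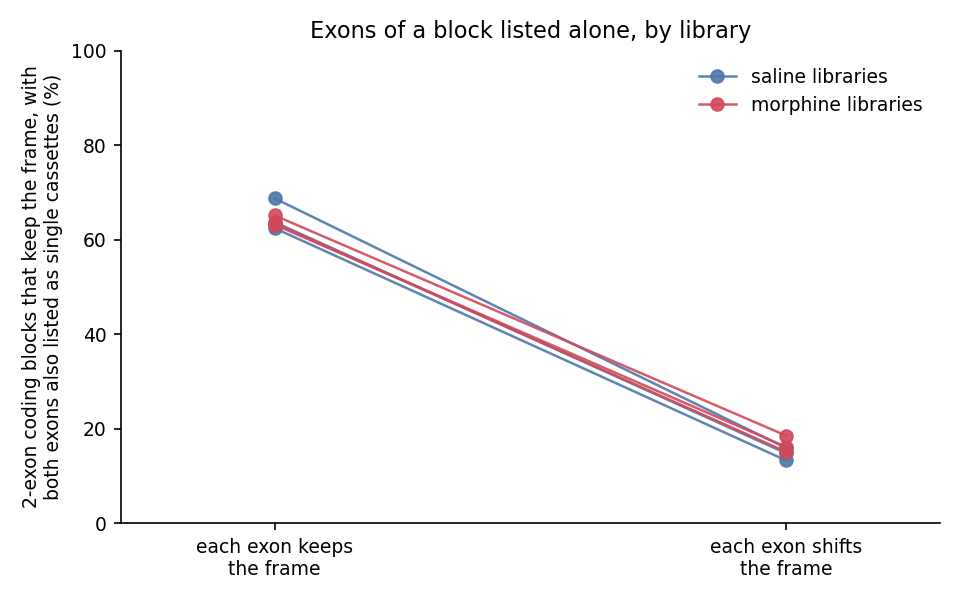
Share of coding 2-exon blocks that keep the frame with both exons also listed as single cassette exons, in percent, for blocks whose exons each keep the frame (left) and each shift it (right). Each line is 1 library (blue saline, red morphine), and every line falls, from between 62.4% and 68.8% to between 13.3% and 18.5%.

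Named examples show the contrast. Of the 39 recurrent blocks whose exons shift the frame, 20 had neither exon listed alone in any library. They include Atf2, Eno2, the neuronal enolase (134 and 223 bases), Kif17, a dendritic kinesin (154 and 557 bases), Cntn4, an axonal adhesion protein (71 and 235 bases), and Nfasc, which encodes the nodal adhesion protein neurofascin (116 and 205 bases). Both exons were listed alone in all 6 libraries for 3 of the 39, namely 2 blocks of the histone acetyltransferase gene Kat6b and that of the myristoyltransferase gene Nmt2. Of the 122 whose exons keep the frame, 68 had both exons listed alone in all 6 libraries and 12 had neither. These genes were named after their values were seen.

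Blocks were set against single cassette exons of the same library to see where they differ. Within libraries, blocks were more often frame-keeping and coding, and they were less often seen again. An event listed in several libraries counts in each of them. Their single exons were more often at annotated positions, whereas their skipping junctions were less often annotated. Their length was a multiple of 3 in 60.1% ± 1.003 (SD, n = 6) against 57.0% ± 0.576 of single exons. Among events with every exon coding the shares were 70.7% ± 1.33 and 68.9% ± 0.668. All exons were coding in 67.6% ± 0.979 of blocks and 62.5% ± 0.946 of single exons. Counted exon by exon, 91.7% ± 1.21 of their exons were at annotated positions, against 88.2% ± 1.05, and the median exon length averaged 104.7 ± 1.21 against 96.2 ± 0.408 bases.

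In the opposite direction, 76.2% ± 2.98 of blocks were listed in at least 1 other library, against 85.5% ± 1.26 of single exons. The skipping junction was annotated for 70.7% ± 3.31 of blocks and 83.0% ± 0.926 of single exons. Each of the 7 differences given so far had the same sign in 6 of 6 libraries, and each gave p = 0.03125 in the two-sided exact sign-flip permutation test, the smallest possible, with 0.03125 after adjustment within each family of 4. The 1.78-point difference among coding events, the smallest of the shares, had an SD of 0.806 over the 6 libraries. The junction share, the coding-event share and exon length were added after the data were seen. The libraries share many of these events, so they are not fully independent. Counted by event and not tested, every exon was annotated in 85.8% ± 1.87 of blocks and 88.2% ± 1.05 of single exons, and the whole included form in 77.98% ± 1.60 and 84.9% ± 0.991. The coding difference depended on recurrence. Among events listed in 1 library, 47.9% of blocks and 49.3% of single exons were fully coding. Among those listed in all 6 libraries the shares were 86.1% and 70.8%.

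Individual genes combined their blocks in several ways. Cadm1, a synaptic adhesion gene, had 3 blocks in every library, made of 3 exons of 84, 33 and 54 bases: the first pair, the last pair and all 3. Kif21a, a kinesin, had 4 in all 6 libraries, from exons of 108, 129, 39 and 15 bases. Rims1, the active zone scaffold related to Rims2, also had 4, of which the longest held exons of 63, 90, 72 and 183 bases, and it had 13 distinct blocks over the series. All these exons are coding and keep the frame, and every exon of the Cadm1 and Kif21a blocks was also listed alone in each library. The same held for Camk2d, Camk2g and Adam22. No exon of the Lrrfip1, Csmd2, Dctn1 and Rims2 blocks in all 6 libraries was ever listed alone. Among the 273 locations listed in all 6 libraries, 82 (30.04%) shared an exon with another of the same gene, in 33 genes.

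Pdzd4, a PDZ domain gene on the X chromosome, also had 4 nested blocks in all 6 libraries. Its first 2 exons, of 254 and 91 bases, shift the frame and sum to 345 bases, and the following exons of 99 and 63 bases keep it, so that all 4 blocks keep the frame. Snrk, a kinase gene, had 5 blocks that were each listed in all 6 libraries, the highest number of such blocks in a gene, but they cover 3 locations, 2 of which were listed in both classes. The Snrk exons of 50, 123 and 90 bases are annotated, and not all of them are coding. Ttc3, which encodes a ubiquitin ligase, had 4 blocks in all 6 libraries, its location of 8 exons being listed in both classes. The number listed per library was 4, 6 and 6 in saline and 4, 7 and 6 in morphine.

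The blocks with most exons in all 6 libraries were in Ttc3 (8 exons, 802 bases), the deubiquitinase gene Mindy3 (7 exons, 633 bases), Csmd2 (6 exons, 735 bases), Lrrfip1 (6 exons, 300 bases) and the actin-oxidising monooxygenase gene Mical2 (5 exons, 681 bases). Kidins220, a neuronal scaffold, and Lrp11 had blocks of 4 exons, as had Bin1. All exons of the Lrrfip1, Mical2 and Kidins220 blocks keep the frame. In Csmd2 only the last of the 6 exons does, yet the block as a whole keeps it. The Ttc3 block shifts the frame.

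**Figure D3:**
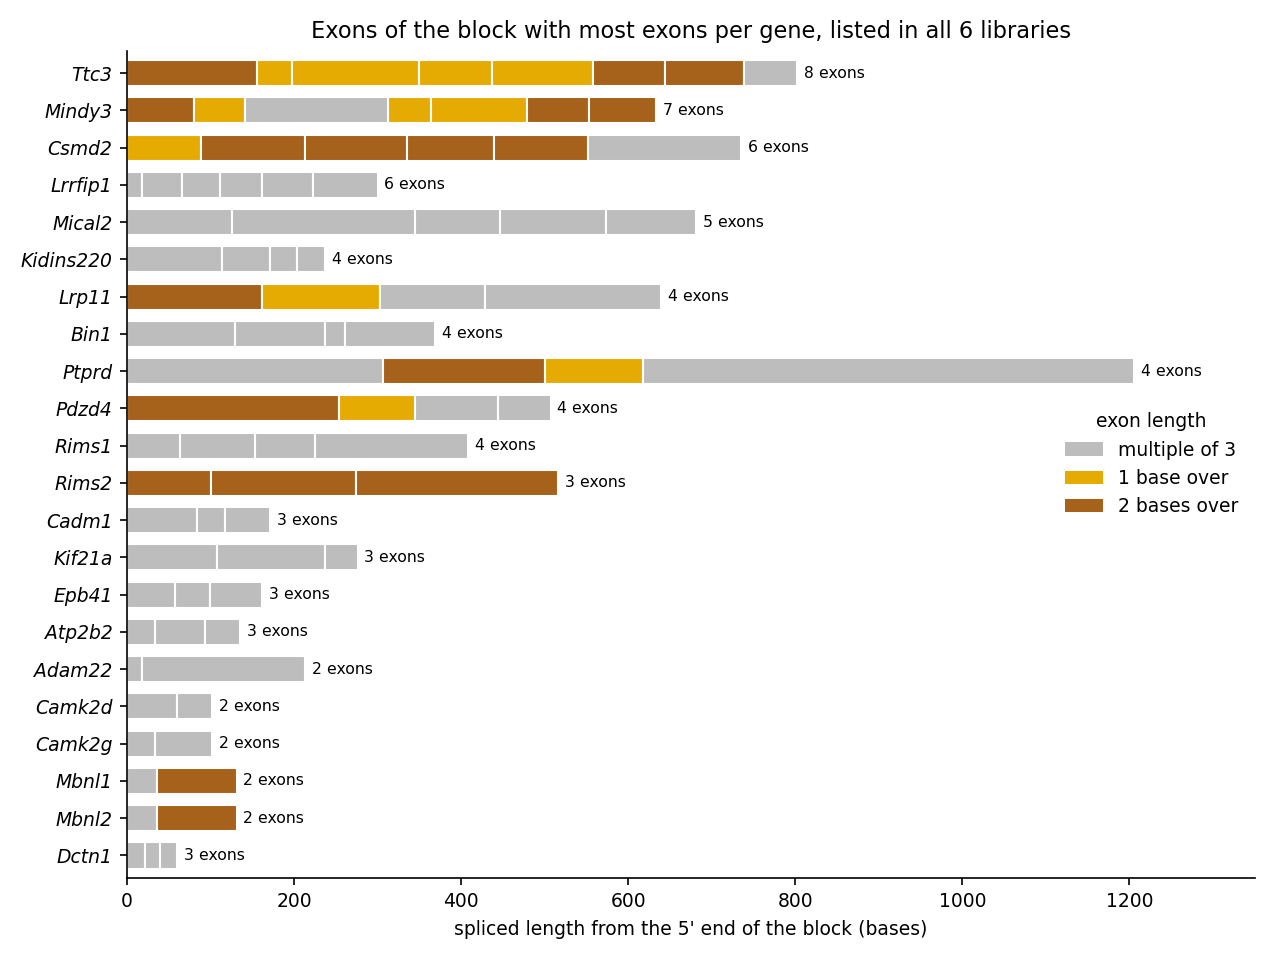
Exon lengths in bases, from the 5′ end, of the block with most exons for 22 genes, each listed in all 6 libraries. Grey exons have a length that is a multiple of 3, and yellow and brown exons are 1 and 2 bases over. Grey fills whole blocks such as Mical2 and Rims1, and yellow and brown exons occur side by side in Ttc3, Mindy3, Csmd2, Lrp11, Ptprd and Pdzd4.

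Other genes had many blocks that did not recur. Over the series, Traf3ip2, an interleukin-17 signalling adaptor, had the most distinct blocks, 19, with 0, 11 and 10 in the saline and 5, 9 and 8 in the morphine libraries. Of these, 18 were on the strand opposite to the gene. The library kit was directional, and whether mapping and assembly used the strand is not given in the sources used here. Fam149b had 18, of which 15 were listed in 1 library, and the uridine phosphorylase gene Upp2 had 15, of which 13 were listed in 1 library. None of the Traf3ip2 and Upp2 blocks was in all 6 libraries. These genes were named for their numbers after the data were seen.

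Gene lists were set out by function, with knowledge of these data, and partly from genes known for alternative exons, so their counts are a description. Every listed gene of the lists was listed in all 6 libraries, apart from the ependymal markers (8 of 9). The 16154 listed genes of the series include genes that some libraries did not list, which cannot have a block in all 6. Of 12 genes known for neuronal exon runs, 9 (75%) had a block in some library and 7 (58.3%) a block in all 6, beside 8.04% and 1.33% of all listed genes. The 7 were Adam22, Bin1, Rims2, Camk2d, Camk2g, Map2 and Mapt. The Mapt block was the pair of 87-base exons that code for the N-terminal inserts of tau. The Map2 block held exons of 3741, 207 and 135 bases, the middle part that the short isoform lacks. Bin1, an amphiphysin-like membrane protein, had 3 blocks of 3 or 4 exons, with exons of 129, 108 and 24 bases in each. App, Grin1 and Dnm1 had no block, although Grin1 had 3 single cassette exons in every library and Dnm1 1 to 4; App had none.

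Synaptic adhesion and axon guidance genes had a block in all 6 libraries in 9 of 25 cases (36%). The microexons of Ptprd, of 9 and 18 bases, code for a small insert of its immunoglobulin region and were both also listed alone in every library. Nlgn3, a postsynaptic neuroligin, had exons of 60 and 60 bases. Epha5, an ephrin receptor, had exons of 156 and 336 bases, and Nrcam of 36 and 153 bases. Sema6a, Nfasc, Cadm1 and Ptprs also had one.

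Cytoskeletal genes had such a block in 7 of 28 cases (25%), among them Sorbs2, Epb41, Epb41l2, Map2, Map4 and Mapt. The numbers per library were even for Sorbs2, with 2 in each, and uneven for Epb41l2, with 9, 3 and 5 in saline and 1, 3 and 7 in morphine. Vesicle release genes had one in 4 of 24 cases (16.7%): Rims1, Rims2, Bin1 and Erc2. The Erc2 block is not fully annotated as coding. In Dctn1 the exons of 21, 18 and 21 bases, which code for a basic stretch near the microtubule-binding domain, were never listed alone in any library. In all, 16 blocks were made of microexons only, and 3 of them were in all 6 libraries: those of Ptprd, Dctn1 and Tenm3. The Tenm3 block, in a teneurin adhesion gene, had exons of 27 and 18 bases that are not both annotated, and both were also listed alone in every library.

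The other lists had smaller shares of genes with a block in all 6 libraries, to be read beside 1.33% of all listed genes. Glutamate and GABA receptors and their postsynaptic scaffolds had none among 25 genes, which is close to that share. Of these genes, 8 (32%) had a block in some library, beside 8.04% of all listed genes. Ion channels had 1 of 25 (4%), Atp2b2, a plasma membrane calcium pump, with a coding block of 33, 60 and 42 bases. Signalling kinases had 2 of 27 (7.41%), Camk2d and Camk2g. Splicing regulators had 3 of 33 (9.09%), Mbnl1, Mbnl2 and Rbfox2. Mbp was the one myelin gene of 12 (8.33%), with exons of 33 and 123 bases. The astrocyte, microglia, ependymal, endothelial and medium spiny neuron markers had no block in all 6 libraries, and of them Rsph1, Pecam1, Bcl11b and Foxp1 had a block in some library. In the 28 genes of the lists, 45 blocks were in all 6 libraries; 42 were fully coding, and 40 of these kept the frame. The 2 exceptions were those of Mbnl1 and Mbnl2.

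**Figure D4:**
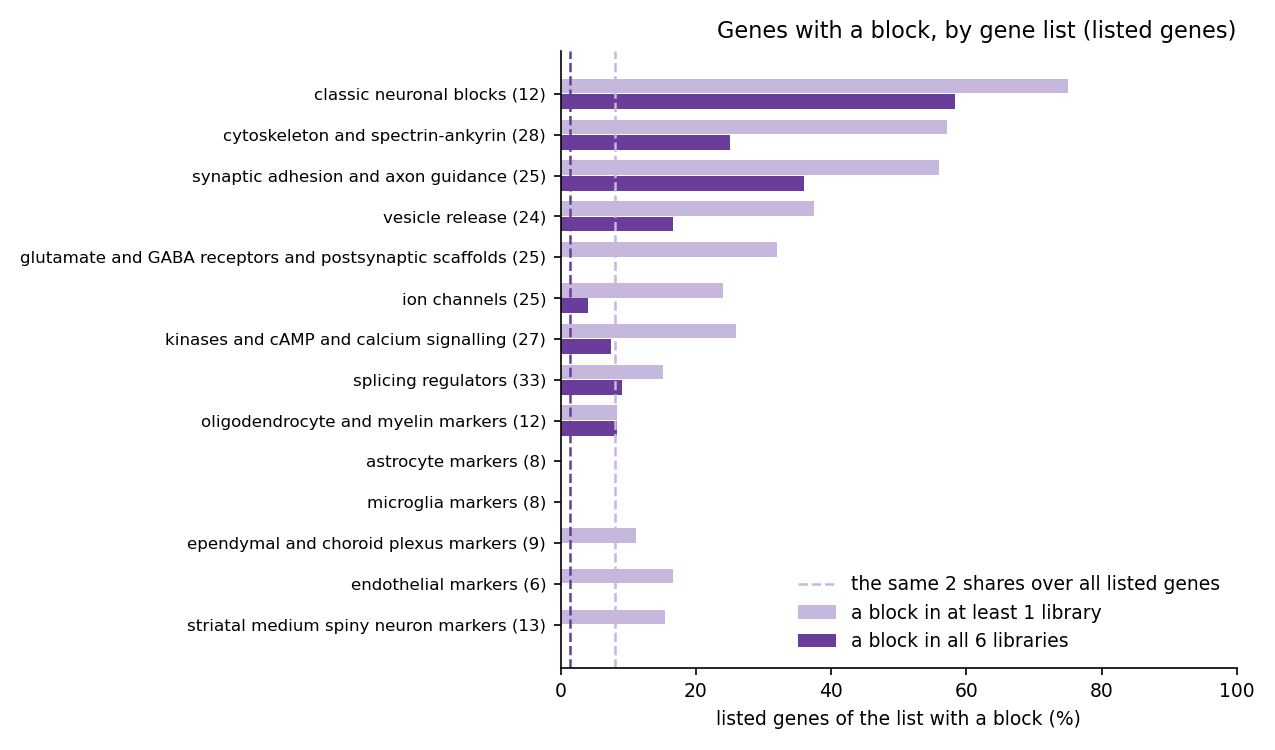
Share of the listed genes of each list, in percent, with a block in at least 1 library (light) and in all 6 libraries (dark), with the number of listed genes in brackets. Dashed lines give the same shares over all 16154 listed genes, 8.04% and 1.33%. The dark bar is longest for genes known for neuronal exon runs (58.3%) and is missing for receptors and scaffolds and for all cell type markers other than the myelin list.

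Related genes had blocks of matching size, a pattern picked out after the values were seen. Mbnl1 and Mbnl2 both had exons of 36 and 95 bases in their block. Without gaps, 31 of the 36 bases (86.1%) and 81 of the 95 bases (85.3%) printed above were identical between them. Ptprd and Ptprs, receptor phosphatases of one family, both had a block of 4 exons in all 6 libraries. The first 3 exons had the same lengths, 306, 194 and 118 bases, and the last had 588 bases in Ptprd and 600 in Ptprs. Over the 3 equal exons 61.1%, 67.5% and 68.6% of bases were identical. In both genes the exons of 194 and 118 bases shift the frame and the whole block keeps it.

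The comparison of morphine with saline asked whether the drug moved the number or make-up of the blocks. The saline libraries listed 813, 812 and 983 blocks and the morphine libraries 873, 962 and 850. The groups overlapped, the third saline library being the highest of the 6. The means were 869 ± 98.4 (SD, n = 3) and 895 ± 59.2 (SD, n = 3), a difference of 25.7 blocks (two-sided exact permutation test, p = 0.6; 0.8 after adjustment over 4 tests). With 3 libraries against 3, no p under 0.1 is possible. The difference turned negative, to -2.5, -3 and -7.83 blocks, without the first saline, the second saline or the second morphine library, and divided by relative depth it was -100 blocks (exact p = 0.2).

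The 2 deepest libraries listed the most blocks. Over the 6 libraries the number of blocks and relative depth had Pearson's r = 0.862 (exact permutation p = 0.0278, adjusted 0.0792 over 4 relations) and Spearman's rho = 0.829 (exact permutation p = 0.0583, adjusted 0.0583), so neither passed 0.05 after adjustment. With the first saline and the second morphine library left out, whose depths are farthest from the median, r was 0.838 over 4 libraries. Each group has 3 libraries, too few for a value within groups. Relative depth averaged 1.14 ± 0.195 (SD, n = 3) in saline and 1.36 ± 0.208 (SD, n = 3) in morphine, and its part in the comparisons between groups was not tested.

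**Figure D5:**
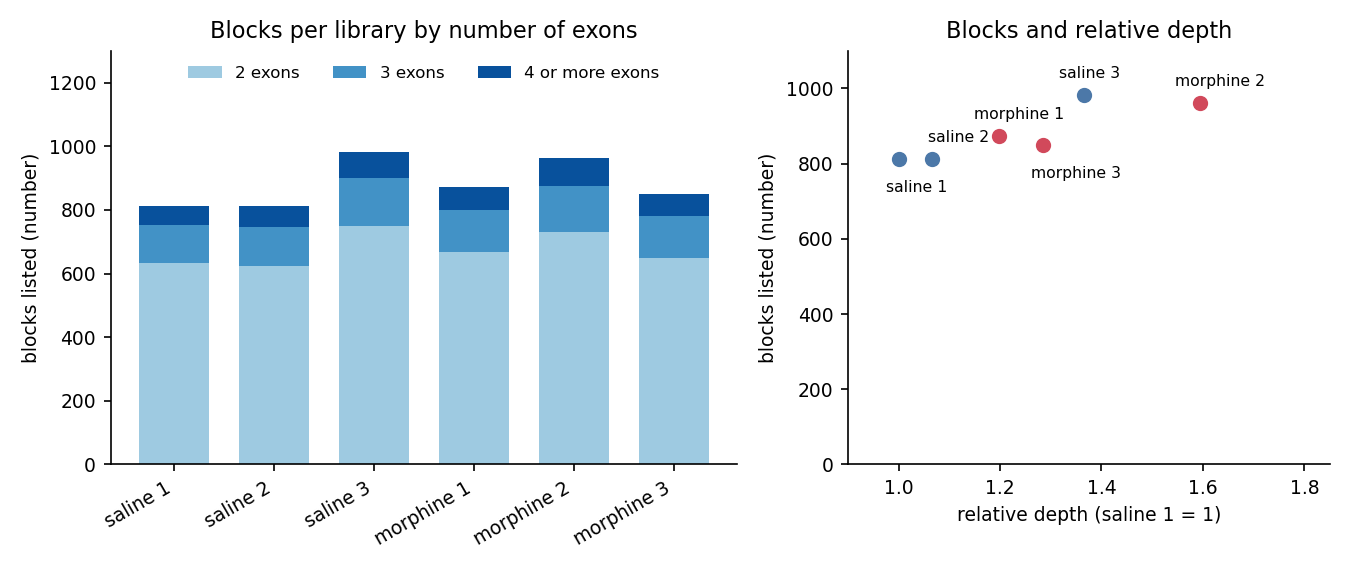
Left, number of blocks listed in each library, stacked by the number of exons. Right, number of blocks against relative depth, with the first saline library at 1 (blue saline, red morphine). The groups overlap, and the libraries with most blocks, the third saline (983) and the second morphine (962), are the deepest ones.

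The make-up of the blocks was compared in the same way. Blocks were 14.4%, 14.2% and 15.7% of all exon skipping events in saline and 14.6%, 15.4% and 14.5% in morphine (exact permutation p = 0.9). Blocks of 3 or more exons were 22.0%, 23.3% and 23.8% in saline and 23.5%, 24.0% and 23.8% in morphine (exact permutation p = 0.3, adjusted 0.6). The groups overlapped in both. The genes with a block numbered 555, 548 and 653 in saline and 589, 635 and 567 in morphine (exact permutation p = 0.7). Both exons of a 2-exon block were also listed alone in 47.8%, 50.6% and 49.7% of the saline and 48.5%, 50.1% and 51.4% of the morphine blocks (exact permutation p = 0.6). The median exon length was 107, 104 and 105 bases in saline and 104 in each morphine library (exact permutation p = 0.4). These last 3 measures were added after the data were seen, and each had an adjusted p of 0.7.

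The share of blocks with a length that is a multiple of 3 was the one of the 4 measures adjusted together in which the groups did not overlap. It was 62.0%, 60.1% and 60.1% in saline and 59.5%, 59.4% and 59.4% in morphine. The difference was -1.33 points with p = 0.1, the smallest that the exact permutation test allows here, and 0.4 after adjustment. Single cassette exons had the same direction, also without overlap, with means of 57.4% ± 0.491 and 56.6% ± 0.340 (SD, n = 3 each; exact permutation p = 0.1). The share of blocks with an annotated skipping junction, looked at after the data were seen, was 71.6%, 73.6% and 74.0% in saline and 65.4%, 68.2% and 71.3% in morphine (exact permutation p = 0.1). For single cassette exons this share was also lower in morphine without overlap, at 83.8% ± 0.218 for the saline and 82.3% ± 0.550 for the morphine libraries (SD, n = 3 each; exact permutation p = 0.1). Beside these, the share of blocks that another library also listed was 77.6% ± 2.60 in saline and 74.8% ± 3.12 in morphine, with overlap. Its part in the 2 differences was not tested. The coding blocks that no other library listed kept the frame in 51.6% ± 1.62 in saline and 46.0% ± 2.36 in morphine (SD, n = 3 each), also without overlap. Those listed in all 6 libraries are the same in each library, with 86.0% in frame.

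Few blocks followed the group labels. In all 3 libraries of one group and none of the other were 16 blocks (0.694%), beside 0.658% of all events of the series. Saline-only blocks numbered 11 (0.477%, beside 0.277% of all events) and morphine-only blocks 5 (0.217%, beside 0.381%). The 16 are in 15 genes, and all 15 genes were listed in all 6 libraries. For 10 of the 16, a library of the other group listed another block that overlaps it, and for 8 it listed at least 1 of the exons alone. For 5 of the 16, in Ccdc148, Megf11, Pkig and Zfp644, a library of the other group listed the same location in the other class.

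Of the saline-only blocks, the Rims2 one at chr15:39517806-39535017 holds coding exons of 66 and 180 bases, both in frame and with both forms annotated, and all 3 morphine libraries listed at least 1 of these exons alone. Paqr6, a membrane progestin receptor gene, had exons of 203 and 127 bases (chr3:88365882-88366286) that shift the frame singly and keep it together. Senp6, a SUMO protease gene, had exons of 143 and 388 bases (chr9:80111311-80114114), again in frame only as a pair. For Paqr6 and Senp6, no morphine library listed an overlapping block or either exon alone. Kiz, a centrosomal gene, had 3 exons of 311 bases in all, likewise with neither in the morphine libraries. Ccdc148 gave 2 of the 11, of 4 and 5 exons, which share their 3′ end and have the same skipping junction. The others were in 5330417C22Rik, Gprasp1, Pkig, Sfi1 and Ube2e2, the last of which was past the limit of the naming rule and is named after its values were seen.

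Of the morphine-only blocks, that of Nap1l1, a nucleosome assembly gene, holds coding exons of 86 and 103 bases (chr10:111485499-111486746) that keep the frame as a pair. Its included form is annotated and its skipping junction is not, and no saline library listed an overlapping block or either exon alone. It was the only block of that gene. The Dmd block, an approximate event in the dystrophin gene, has exons of 66 and 159 bases, and 2 saline libraries listed a block that overlaps it. Megf11, Micall1 and Zfp644 also had overlapping blocks in 1, 2 and 2 saline libraries. For a single block, 3 libraries against none cannot give an exact p under 0.1, so none of the 16 is called different between the groups.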

How the data were processed

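RNA of the nucleus accumbens was sequenced in 6 libraries, 3 saline and 3 morphine, grouped by the treatment label. The authors mapped reads with HISAT2 and assembled transcripts with StringTie. The genome build and the program that listed the events are not given in the sources used here. In the 6 deposited event lists, the column headed FPKM holds 0 and negative whole numbers, down to -25, and was not used. In the series table, the authors deposited raw counts and FPKM values per assembled lncRNA transcript, for transcripts they called differential. Counts of at least 10 and their FPKM (91 values) gave relative depth by weighted least squares on the log of their ratio. The table's fold changes and FDR are the authors' own comparison and were not used.

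Each included form was paired with the skipped form on the line after it. Where a block had several exon patterns (355 of them), the pattern in most libraries was used. Exon positions were matched exactly to GENCODE M21 (GRCm38): 89.6% to 92.9% of block exons per library matched an annotated exon, and 99.3% of gene identifiers were found. Tests were two-sided exact permutation tests over libraries and sign-flip permutation tests of differences within libraries, with Benjamini-Hochberg adjustment within families, in Python 3.11.15 with numpy 2.4.6, pandas 2.3.3 and scipy 1.17.1. Code was tested on simulated data. A listed event has no read number of its own, so no counting interval is given.

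Genes were named by a rule: the 5 genes with most blocks in all 6 libraries, the 8 such blocks with most exons, up to 10 group-only blocks per direction with every exon annotated, up to 4 genes per list, and up to 5 microexon blocks. Genes outside it are named where a count or list was small, and some genes it gives are not reported here. The members, lists and rule were chosen with earlier results of these data known. Alternatives used exact events only, added the whole exon pattern to the identity, kept genes that every library listed, kept main chromosomes and the gene's own strand, or left out each library. The number of blocks was also scaled by genes and by depth, and limited to blocks with annotated exons. Figures were drawn with matplotlib 3.10.9.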

Additional observations from a re-analysis of the deposited data

How the results depend on the processing

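The differences between blocks and single cassette exons, and between the 2 kinds of frame-keeping block, kept their direction under several alternatives. These were exact events only, whole patterns, genes listed in all 6 libraries, main chromosomes with own strand, and location without class, the last chosen after seeing the data. Each gave p = 0.03125 in the exact sign-flip permutation test, which 6 differences of one sign always give. Several sizes changed most with whole patterns. The multiple-of-3 share then differed by 1.92 points (3.09 in the main setting), and that of coding events by 0.943 (1.78). The coding share differed by 2.93 (5.12), the annotated exon share by 2.41 (3.50), and the share listed elsewhere by -12.6 (-9.33). The remaining sizes changed most with exact events only. The median exon length then differed by 5.92 bases (8.5), the annotated junction share by -11.0 points (-12.4), and the 2 kinds of block by 51.1 points (48.8). With any library left out, 5 differences cannot give p under 0.0625, and all kept their sign: the multiple-of-3 share differed by 2.96 to 3.32 points, the annotated exon share by 3.31 to 3.63, the share listed elsewhere by -10.1 to -9.12, the coding share by 4.80 to 5.32, the multiple-of-3 share of coding events by 1.47 to 2.01, the annotated junction share by -12.8 to -11.5, the median exon length by 8 to 9 bases, and the 2 kinds of block by 48.0 to 49.2 points.

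Between the groups, leaving out a library gave differences of -7.83 to 82.5 blocks, -0.251 to 0.499 points of block share, -7.33 to 45.5 genes and -0.249 to 1.296 points for exons listed alone. Group-only blocks then numbered 35 to 52, since fewer libraries had to list them. The group with a library left out always had more of them. Without the first saline library, 33 were saline-only and 13 morphine-only. Without the first morphine library, 18 were saline-only and 34 morphine-only. The share over all events was not counted for these settings. With exact events only, the difference in block share was -0.0754 points. Divided by relative depth, the difference in blocks was -100.4. The multiple-of-3 share stayed lower in morphine under every alternative run, with differences of -1.73 to -0.702 points when a library was left out. By location without class, 8 saline-only and 3 morphine-only blocks were left. The share over all events was not counted by location, so these 2 numbers have nothing to be set against. No paired analysis was possible because the labels give no replicate numbers.

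No read number stands behind a single block, so a block missing from a list is not shown to be absent from that library.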
